A study of Homo sapiens with 8 samples.

Results

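The regulators of the integrated stress response examined here were 10 genes, listed by symbol for their known roles, with earlier results of these data known. They were the transcription factors ATF4, ATF3, ATF5, DDIT3 (which encodes CHOP) and CEBPG, and the stress-induced genes PPP1R15A, TRIB3, SESN2, DDIT4 and CHAC1. All 10 were found in the count table of 60230 genes, and 9 of them were among the 13400 genes with enough counts to be tested. The tenth, CHAC1, had no counts. The cells of every group were CYP2C19-overexpressing HepG2, a liver cancer line carrying a transgene for the drug-metabolising cytochrome P450 2C19. The line was grown with blasticidin to keep the transgene selected, and whether blasticidin was present during treatment is not stated. Cells received 0.2% DMSO or 1 of 3 plastic-related bisphenols, with 2 libraries in each of the 4 groups, and were harvested after 24 h. Compound 4 (metylcresol in the labels) has a methylene bridge between rings that carry tert-butyl and methyl groups. Compound 6 (cyclohexil) has the same methylene-bridged cresol skeleton with cyclohexyl in place of tert-butyl. Compound 5 (tetrabut) has an ethylidene bridge and tert-butyl groups at both substituted positions of each ring. Each compound was given at its own half-maximal cytotoxic concentration, which had been measured over a longer exposure. The study called these values rather comparable for compounds 4, 5 and 6, so the doses were close but not identical. The labels mark the replicates of each group as day 1 and day 2, and nothing in them says how the cultures of the 2 days were related, so that the p-values measure the spread between these libraries.

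In the integrated stress response, kinases that sense unfolded protein in the endoplasmic reticulum, amino acid shortage, haem shortage or viral RNA phosphorylate the initiation factor eIF2. General protein synthesis then slows, while upstream reading frames in the leader of ATF4 mRNA let this transcription factor be made. ATF4 switches on genes of amino acid supply together with CHOP, ATF3 and the feedback regulators, among them the eIF2 phosphatase subunit encoded by PPP1R15A (GADD34). Part of this control acts on translation and is not measured by RNA sequencing.

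The libraries held 9791659 to 17814595 counts assigned to genes, so that 3 counts, taken as the detection floor, equalled 0.171 to 0.307 CPM, the count scaled to a common library total. CYP2C19 was present in all 8 libraries, at 16.4 to 52.8 CPM. Its level was higher in both libraries of compound 4 and of compound 5 than in both DMSO libraries, and its part in the results below was not tested. The 9 hepatocyte markers summed to 34999 to 54654 CPM, with ALB at 14369 CPM or more, and both sums under DMSO were above those of every treated library, a difference whose part in the results was not tested. Of 8 markers of other cell types, PTPRC, COL1A2 and KRT5 had no counts in any library. COL1A1 had none in 5 libraries and PECAM1 did not exceed 0.532 CPM, while EPCAM, CD68 and ACTA2 were detected throughout. The summed level of these 8 markers was 208 and 213 CPM under DMSO and 178 to 227 CPM under the compounds. In such bulk RNA a lower level can mean fewer expressing cells or less RNA per cell, and these cannot be told apart.

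Most of the regulators stood higher in treated cells than in DMSO cells, with the largest median under compound 5, while the spread between the 2 libraries of a treatment was wide. In the quasi-likelihood test of edgeR, adjusted by Benjamini-Hochberg over the 13400 genes and read at a threshold of 0.05, ATF4, DDIT3, SESN2 and PPP1R15A rose under compound 5 and CEBPG rose under compound 4. No regulator passed under compound 6, and none fell under any compound, where 3.91%, 2.95% and 0.0821% of all tested genes fell under compounds 4, 5 and 6. That is 4 of 9 tested regulators under compound 5, against 5.35% of all tested genes called higher in that comparison. The count was 2 with the day of the replicate as a block, which lost DDIT3 and SESN2. All 4 calls were lost without DMSO replicate 1, DMSO replicate 2 or compound 5 replicate 1. Such fits leave a lone library in a group, and most calls over all genes were lost in them too. The fit without compound 5 replicate 2 also leaves a lone library, but did not lose these calls. There the log2 fold changes of ATF4, DDIT3, SESN2 and PPP1R15A were 0.72, 2.49, 1.20 and 2.69. Without compound 5 replicate 1 they were 0.58, 1.03, 0.77 and 1.79. Under compound 4 the count is 1 of 9 against 5.6%, and under compound 6 it is 0 of 9 against 0.493%. The compound 4 call was lost without DMSO replicate 1, DMSO replicate 2 or compound 4 replicate 2, again with most calls over all genes. At an unadjusted p under 0.05, 5, 7 and 6 of the 9 were higher under compounds 4, 5 and 6, against 15.1%, 15.6% and 10.9% of all tested genes. DESeq2 called 2 regulators under compound 6, SESN2 and CEBPG, beside 518 calls over all genes. The median log2 fold change of the 9 was 0.73, 1.00 and 0.82 under compounds 4, 5 and 6, beside 0.01, 0.00 and 0.02 over all tested genes.

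**Figure D1:**
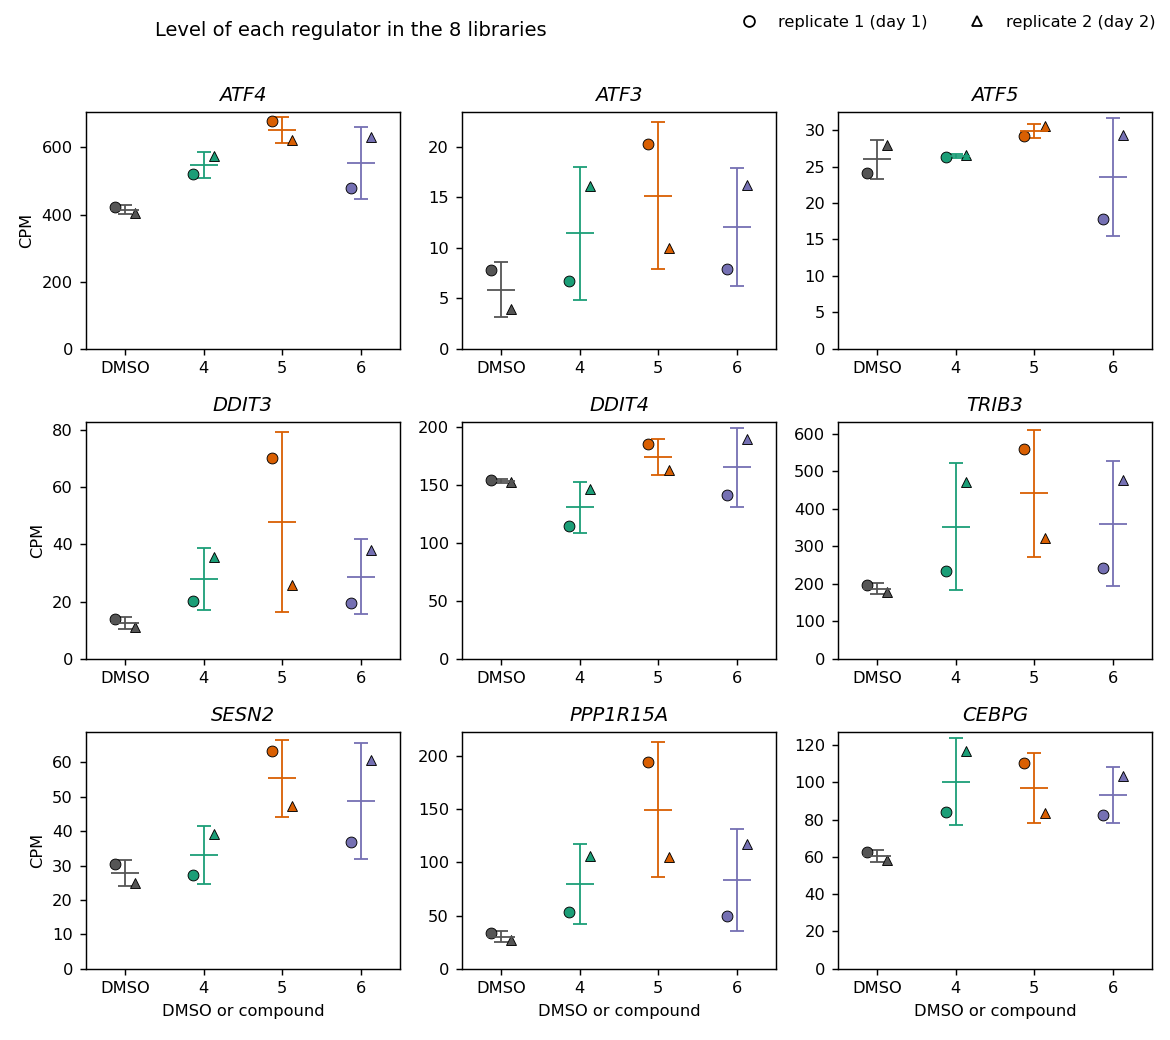
CPM (vertical axes, linear from 0) of the 9 detected regulators in each library, by group (horizontal axes). Circles are replicate 1, triangles replicate 2, and bars the mean with SD (n = 2). All compound 5 libraries lie above both DMSO libraries, and the replicates of each compound lie far apart for DDIT3, TRIB3 and PPP1R15A.

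**Figure D2:**
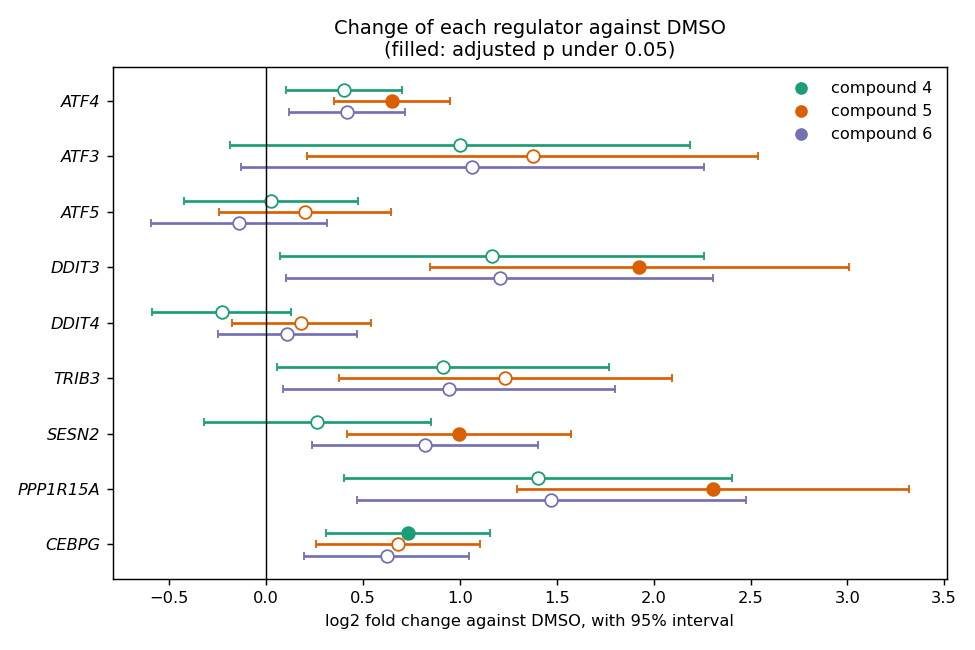
Log2 fold change of each regulator against DMSO (horizontal axis) with its 95% interval, for compounds 4, 5 and 6. Filled points passed the adjusted p threshold. They are CEBPG under compound 4 and ATF4, DDIT3, SESN2 and PPP1R15A under compound 5.

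The promoters of 5 of these genes are shown because they held a short element known to bind bZIP factors. ATF5, the sixth gene with such an element, is described without its sequence. RefSeq (GRCh38.p14) gave 18 promoter starts for the 10 genes, all 10 of which were matched. Each window reached from 250 bases before a start to 50 after it, and both strands were searched for the C/EBP-ATF response element TGATGNAA, the cyclic AMP response element TGACGTCA and the AP-1 element TGANTCA. The 250 bases before the start are printed 5′ to 3′ on the strand of the gene, in lower case with the matched element in capitals.
CEBPG promoter, chr19:33373863-33374112, plus strand: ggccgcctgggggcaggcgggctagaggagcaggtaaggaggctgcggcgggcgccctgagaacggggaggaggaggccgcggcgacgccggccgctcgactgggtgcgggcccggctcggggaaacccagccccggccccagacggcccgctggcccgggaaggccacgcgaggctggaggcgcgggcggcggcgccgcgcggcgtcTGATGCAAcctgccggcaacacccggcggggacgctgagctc
PPP1R15A promoter, chr19:48872171-48872420, plus strand: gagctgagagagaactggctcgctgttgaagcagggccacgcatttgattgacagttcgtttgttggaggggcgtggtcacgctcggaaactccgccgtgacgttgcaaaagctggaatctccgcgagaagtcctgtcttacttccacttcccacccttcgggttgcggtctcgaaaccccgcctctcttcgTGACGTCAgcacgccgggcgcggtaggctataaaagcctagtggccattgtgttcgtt
DDIT3 promoter, chr12:57520515-57520764, minus strand: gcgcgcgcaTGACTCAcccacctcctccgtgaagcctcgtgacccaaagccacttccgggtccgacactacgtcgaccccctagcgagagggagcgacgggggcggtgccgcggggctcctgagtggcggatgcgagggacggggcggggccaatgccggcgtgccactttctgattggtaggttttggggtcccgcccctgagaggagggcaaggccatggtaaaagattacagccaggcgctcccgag
ATF3 promoter, chr1:212565157-212565406, plus strand: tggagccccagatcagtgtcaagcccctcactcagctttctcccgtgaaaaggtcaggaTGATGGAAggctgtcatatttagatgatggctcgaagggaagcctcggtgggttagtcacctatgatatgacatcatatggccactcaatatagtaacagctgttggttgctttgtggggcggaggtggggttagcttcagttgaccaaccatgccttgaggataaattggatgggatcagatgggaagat
CHAC1 promoter, chr15:40953221-40953470, plus strand: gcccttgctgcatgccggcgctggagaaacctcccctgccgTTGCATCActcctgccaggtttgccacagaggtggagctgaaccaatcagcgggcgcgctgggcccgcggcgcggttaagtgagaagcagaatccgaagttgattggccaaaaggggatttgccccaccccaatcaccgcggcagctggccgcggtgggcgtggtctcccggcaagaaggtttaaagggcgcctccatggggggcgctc

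The C/EBP-ATF response element occurred in 3 of the 18 windows, each of a different gene, and in 3.62% of all 35116 promoters of this length. It lay at bases -42 to -35 from one CEBPG start and at -191 to -184 from one ATF3 start, while in CHAC1 it lay on the opposite strand at -209 to -202. The other CEBPG start and the other ATF3 start had no match. The cyclic AMP response element occurred in 1 of the 18 windows, at bases -58 to -51 of PPP1R15A, and in 1.85% of all promoters. The AP-1 element lay at -241 to -235 from one DDIT3 start, which is the same site at -238 to -232 from the other, and at -188 to -182 from 1 of 3 ATF5 starts. These were 3 of the 18 windows, and the element occurred in 7.71% of all promoters. No window held more than 1 match, and none of the 3 elements lay in the windows of ATF4, TRIB3, SESN2 or DDIT4. A match describes letters in the window and does not show that a factor binds there.

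The mRNA leaders of the family differed as well. In the principal coding transcripts of GENCODE release 29, the leader of ATF4 held 3 to 7 ATG triplets ahead of the start codon, that of ATF5 held 2 to 6, and those of DDIT3 and PPP1R15A held 2 to 3 and 2. Leaders with at least 1 upstream ATG in every principal transcript were found in 8 of the 10 regulators and in 47.9% of 18702 coding genes. Those with at least 2 were found in 6 of 10 and in 26.6%. DDIT4 and CHAC1 had none, the latter with a leader of 20 bases.

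ATF4 (ENSG00000128272, chromosome 22, 39519695 to 39522685, GRCh38), the central factor, was the most abundant regulator. Its level was 424 and 406 CPM in DMSO replicates 1 and 2, 519 and 575 CPM under compound 4, 679 and 623 CPM under compound 5, and 479 and 630 CPM under compound 6. All 6 treated libraries were above both DMSO libraries, and the compound 6 libraries lay furthest apart. The log2 fold change was 0.65 under compound 5 (95% interval 0.35 to 0.95, edgeR adjusted p = 0.022), which is 1.57-fold, with differences of 0.68 on day 1 and 0.62 on day 2. It was 0.40 under compound 4 (0.10 to 0.70, edgeR adjusted p = 0.09) and 0.42 under compound 6 (0.12 to 0.72, edgeR adjusted p = 0.15). The compound 5 call was lost without DMSO replicate 1, DMSO replicate 2 or compound 5 replicate 1 (edgeR adjusted p = 0.11, 0.16 and 0.14), with log2 fold changes of 0.67, 0.62 and 0.58.

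DDIT3 (ENSG00000175197, chromosome 12, 57516588 to 57521737) encodes CHOP, a C/EBP-family factor of prolonged stress. It was at 13.9 and 11.1 CPM under DMSO, 20.3 and 35.5 CPM under compound 4, 70.1 and 25.7 CPM under compound 5, and 19.4 and 38.1 CPM under compound 6. No treated library reached down to the DMSO level, and compound 5 replicate 1 stood far above all the others. The log2 fold change under compound 5 was 1.93 (95% interval 0.84 to 3.01, edgeR adjusted p = 0.041), with 2.29 on day 1 and 1.17 on day 2. Under compounds 4 and 6 it was 1.17 and 1.20, with edgeR adjusted p = 0.16 and 0.23. In the fit that took the day of the replicate as a block, the compound 5 value was 1.92 (edgeR adjusted p = 0.054). Without compound 5 replicate 1 it was 1.03 (edgeR adjusted p = 0.24), and without DMSO replicate 1 or 2 it was 2.08 or 1.77 (edgeR adjusted p = 0.14 and 0.22). DDIT3 overlaps 2 annotated genes on its own strand and 2 on the other, so reads of the overlapping parts may be shared with the former. They may also be shared with the latter if strand was not used in the quantification. One of the latter, MARS (now MARS1), was at 186 and 205 CPM under DMSO and 353 and 320 CPM under compound 5. Its part in the DDIT3 values was not tested.

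CEBPG (ENSG00000153879, chromosome 19, 33373330 to 33382686) encodes a C/EBP protein that pairs with ATF4 at response elements such as the one printed above. Its levels were 62.7 and 58.3 CPM under DMSO, 84.1 and 117 CPM under compound 4, 110 and 83.8 CPM under compound 5, and 82.4 and 104 CPM under compound 6. Every treated library was above both DMSO libraries, and the means of the 3 compounds lay close together. The log2 fold changes were 0.73, 0.68 and 0.62 under compounds 4, 5 and 6, with edgeR adjusted p = 0.04, 0.055 and 0.14. The compound 5 value passed in 7 of 14 alternatives, DESeq2 among them (adjusted p = 0.0064). For compound 4 the 95% interval was 0.31 to 1.16 and the differences were 0.42 on day 1 and 1.00 on day 2. That call was lost without DMSO replicate 1, DMSO replicate 2 or compound 4 replicate 2, with log2 fold changes of 0.78, 0.68 and 0.48 (edgeR adjusted p = 0.12, 0.25 and 0.25).

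ATF3 (ENSG00000162772, chromosome 1, 212565334 to 212620777), an early stress-induced bZIP factor, was the lowest of the detected regulators per unit of length. It was at 7.79 and 3.94 CPM under DMSO, 6.76 and 16.1 CPM under compound 4, 20.3 and 10.0 CPM under compound 5, and 7.95 and 16.2 CPM under compound 6. Compound 4 replicate 1 lay between the DMSO libraries and compound 6 replicate 1 just above them. The log2 fold changes were 1.00, 1.38 and 1.06, and none passed (edgeR adjusted p = 0.26, 0.12 and 0.32). Under compound 5 the difference was 1.33 on day 1 and 1.25 on day 2, whereas under compound 4 it was -0.19 and 1.91 and under compound 6 it was 0.03 and 1.91. DESeq2 called ATF3 under compound 5 (adjusted p = 0.029).

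ATF5 (ENSG00000169136, chromosome 19, 49928702 to 49933935) encodes a factor translated in the manner of ATF4 and linked to mitochondrial stress. Its levels were 24.1 and 27.9 CPM under DMSO, 26.3 and 26.6 CPM under compound 4, 29.2 and 30.5 CPM under compound 5, and 17.9 and 29.3 CPM under compound 6. It stayed near the DMSO range in all groups apart from compound 6 replicate 1, the lowest library. The log2 fold changes were 0.02 (95% interval -0.43 to 0.47), 0.20 (-0.24 to 0.64) and -0.14 (-0.60 to 0.31), with edgeR adjusted p = 0.95, 0.53 and 0.75. Without DMSO replicate 1 the compound 4 value was -0.081, and without compound 6 replicate 1 the compound 6 value was 0.16. ATF5 shares its strand with a microRNA gene and overlaps 3 genes on the opposite strand.

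Among the stress-induced effectors, PPP1R15A (ENSG00000087074, chromosome 19, 48872392 to 48876057) showed the widest difference of all 9 regulators under each compound. Its product directs protein phosphatase 1 to eIF2 and so ends the response. It was at 33.8 and 26.6 CPM under DMSO, 53.2 and 106 CPM under compound 4, 194 and 105 CPM under compound 5, and 49.8 and 117 CPM under compound 6. The lowest treated library was well above the higher DMSO library. The log2 fold change under compound 5 was 2.31 (95% interval 1.29 to 3.32, edgeR adjusted p = 0.019), which is 4.94-fold, with 2.50 on day 1 and 1.95 on day 2. Under compounds 4 and 6 it was 1.40 and 1.47, with edgeR adjusted p = 0.078 and 0.14. Without DMSO replicate 1, DMSO replicate 2 or compound 5 replicate 1 the compound 5 values were 2.47, 2.14 and 1.79, and none passed (edgeR adjusted p = 0.098, 0.15 and 0.12). Without compound 6 replicate 2 the compound 4 value was 1.41 and passed (edgeR adjusted p = 0.049), whereas without compound 4 replicate 2 it was 0.82 (edgeR adjusted p = 0.41). The compound 6 value was 0.73 without compound 6 replicate 2 (edgeR adjusted p = 0.63).

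TRIB3 (ENSG00000101255, chromosome 20, 362835 to 397559) encodes a pseudokinase induced by ATF4 and CHOP that dampens their activity. It was at 198 and 177 CPM under DMSO, 233 and 473 CPM under compound 4, 560 and 322 CPM under compound 5, and 243 and 478 CPM under compound 6. The 6 treated libraries were all above the DMSO pair, but the libraries of each compound differed by a factor near that of the treatment itself. The log2 fold changes were 0.91 (95% interval 0.06 to 1.77), 1.23 (0.37 to 2.09) and 0.94 (0.09 to 1.80), with edgeR adjusted p = 0.16, 0.076 and 0.23. The differences under compound 5 were 1.5 on day 1 and 0.86 on day 2. Under compound 4 they were 0.24 and 1.41, and under compound 6 they were 0.29 and 1.43. Without compound 5 replicate 2 the compound 5 value was 1.58 and passed (edgeR adjusted p = 0.039), and without compound 5 replicate 1 it was 0.77 (edgeR adjusted p = 0.38). Without replicate 2 of compound 4 or of compound 6, their values were 0.32 and 0.38 (edgeR adjusted p = 0.72 and 0.78).

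SESN2 (ENSG00000130766, chromosome 1, 28259527 to 28282491) encodes sestrin 2, a leucine sensor that restrains mTORC1. Its levels were 30.4 and 25.0 CPM under DMSO, 27.2 and 39.1 CPM under compound 4, 63.3 and 47.4 CPM under compound 5, and 36.8 and 60.7 CPM under compound 6. The compound 5 and compound 6 libraries were above both DMSO libraries, while compound 4 replicate 1 lay between them. The log2 fold change was 1.00 under compound 5 (95% interval 0.42 to 1.57, edgeR adjusted p = 0.046), with 1.04 on day 1 and 0.91 on day 2. It was 0.26 under compound 4 and 0.82 under compound 6 (edgeR adjusted p = 0.56 and 0.15). With the replicate block the compound 5 value was 1.00 at an edgeR adjusted p of 0.05, just over the threshold before rounding. Without DMSO replicate 1, DMSO replicate 2 or compound 5 replicate 1 it was 1.13, 0.86 and 0.77 (edgeR adjusted p = 0.13, 0.24 and 0.23), and without compound 4 replicate 2 the compound 4 value was -0.024.

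DDIT4 (ENSG00000168209, chromosome 10, 72273920 to 72276036), which encodes the mTORC1 inhibitor REDD1, did not pass in any comparison. It was at 154 and 152 CPM under DMSO, 115 and 146 CPM under compound 4, 185 and 163 CPM under compound 5, and 141 and 190 CPM under compound 6. Both compound 4 libraries were below the DMSO pair, both compound 5 libraries were above it, and compound 6 lay on both sides. The log2 fold changes were -0.23 (95% interval -0.59 to 0.13), 0.18 (-0.18 to 0.54) and 0.11 (-0.25 to 0.47), with edgeR adjusted p = 0.39, 0.48 and 0.75. Without compound 6 replicate 2 the compound 6 value was -0.12. An antisense gene lies on the opposite strand of DDIT4, and whether strand was used in the quantification is not given in the sources used here.

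CHAC1 (ENSG00000128965, chromosome 15, 40952962 to 40956519) encodes a glutathione-degrading enzyme that is a target of ATF4, ATF3 and CEBPB. It had 0 counts in all 8 libraries, which allows up to 0.171 to 0.307 CPM per library for counting error alone. Whether its transcripts were absent or were not quantified was not settled, so the 0 is a value of the table and not a measured lack of expression. No other annotated gene overlaps it, and 4756 of 19828 protein-coding genes in the table, 24%, likewise had 0 counts in every library. No fold change can be given for this gene. Its close relative CHAC2, described with the other relatives further on, was detected and tested.

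Per kilobase of exon, the levels under DMSO were 165 CPM per kb for ATF4, 74.5 for DDIT4, 54.6 for TRIB3 and 13.7 for CEBPG. PPP1R15A, DDIT3, ATF5 and SESN2 followed at 9.77, 9.59, 8.80 and 8.03 CPM per kb, in an order that did not exceed the spread between libraries, and ATF3 was at 1.45 CPM per kb. Across groups, compound 5 had the highest mean CPM for 8 of the 9 detected regulators, and compound 4 for the other, CEBPG. DMSO had the lowest mean for 7 of the 9. The exceptions were ATF5, lowest under compound 6, and DDIT4, lowest under compound 4. Both treated libraries were above both DMSO libraries for 5, 9 and 7 of the 9 under compounds 4, 5 and 6, against 30.4%, 31% and 29.3% of all tested genes.

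The libraries of each treatment parted in the same direction for nearly the whole family. All 9 detected regulators were higher in replicate 2 than in replicate 1 under compound 4, with a median log2 difference of 0.51, and again under compound 6, with a median of 0.72. Under compound 5 the order was opposite, with 1 of 9 higher in replicate 2 and a median of -0.41, and under DMSO 1 of 9 was higher, with a median of -0.16. Over all tested genes, 48.2% to 52% were higher in replicate 2 in the 4 groups. No pair of replicates was a single library under separate names, since the mean chi-square per gene was 8.42 to 19.7 where counting noise alone gives 1.

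Taken by day, the differences of the 9 regulators from the DMSO library of the same day spanned -0.43 to 0.65 on day 1 and -0.07 to 1.97 on day 2 under compound 4. Under compound 6 they spanned -0.42 to 0.55 on day 1 and 0.07 to 2.12 on day 2. Under compound 5 they were 0.26 to 2.50 on day 1 and 0.10 to 1.95 on day 2, so that all 9 were above DMSO on both days. These values are on the log2(CPM + 0.5) scale and rest on 1 library per arm.

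**Figure D3:**
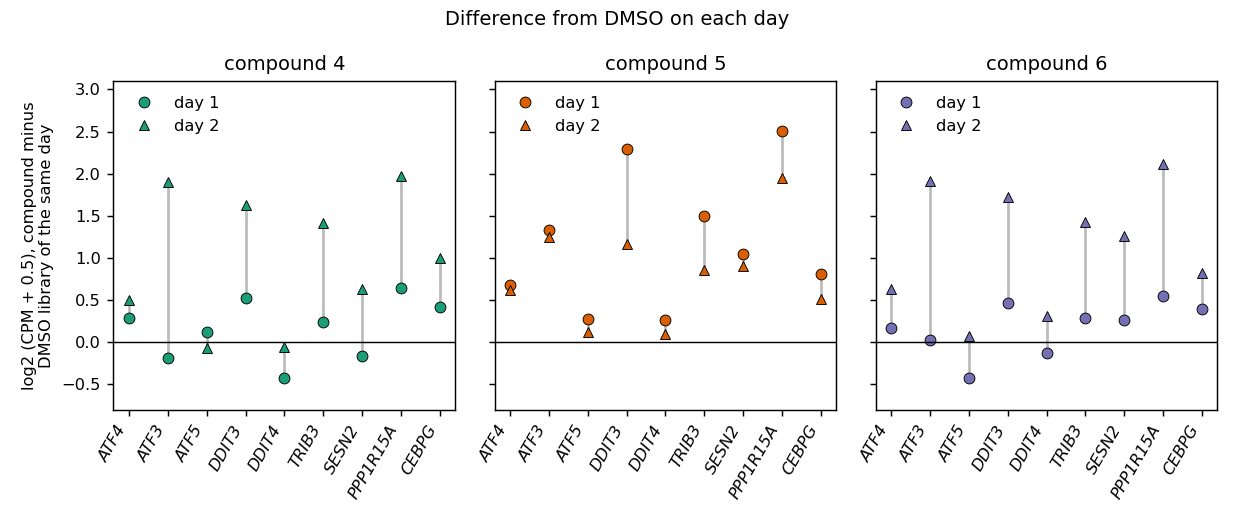
Difference of each regulator (horizontal axes) from the DMSO library of the same day, in log2(CPM + 0.5) (vertical axis), for compounds 4, 5 and 6. Circles are day 1 and triangles day 2. Day 2 is the higher day for most regulators under compounds 4 and 6, and day 1 for all 9 under compound 5.

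Compared with each other, the compounds gave no call among the 9 regulators in any of the 3 contrasts, in which 0.313% (compound 4 against 5), 0% (4 against 6) and 1.03% (6 against 5) of all tested genes passed. DESeq2 called none of them either. At an unadjusted p under 0.05, 2 regulators were lower under compound 4 than under compound 5, and none stood out in the other contrasts. These contrasts compare close but not identical concentrations. Between compounds 4 and 6, which differ by cyclohexyl for tert-butyl, the libraries overlapped for all 9 regulators. The compound 4 minus compound 6 difference was -0.02 for ATF4 (95% interval -0.32 to 0.28), -0.04 for DDIT3 (-1.07 to 0.99) and -0.07 for PPP1R15A (-1.02 to 0.89). The interval was narrow for ATF4 and far wider for DDIT3 and PPP1R15A, so the data do not show that the pair acted alike on these genes. The widest differences of that contrast were in SESN2 (-0.55, interval -1.13 to 0.02) and DDIT4 (-0.34, -0.70 to 0.02), both lower under compound 4 (edgeR adjusted p = 0.72 and 0.73).

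Compound 5, with its ethylidene bridge and further tert-butyl groups, was set against the other two in the same way. Both compound 4 libraries were below both compound 5 libraries for ATF4, ATF5, DDIT4 and SESN2, that is 4 of 9 against 21.8% of all tested genes. The 2 regulators at an unadjusted p under 0.05, where 7.63% of all tested genes were lower, were SESN2 (-0.73, 95% interval -1.30 to -0.16) and DDIT4 (-0.41, -0.77 to -0.05), with edgeR adjusted p = 0.21 and 0.26. For PPP1R15A the difference was -0.90 (interval -1.85 to 0.05, edgeR adjusted p = 0.33) and for DDIT3 it was -0.76 (-1.77 to 0.25, edgeR adjusted p = 0.42). By day, the compound 4 minus compound 5 difference of PPP1R15A was -1.86 on day 1 and 0.02 on day 2, and that of DDIT3 was -1.77 and 0.46. The compound 6 minus compound 5 difference was below 0 for all 9, as for 50.6% of all tested genes, and reached -0.83 for PPP1R15A (interval -1.78 to 0.11, edgeR adjusted p = 0.33), again with -1.95 on day 1 and 0.16 on day 2.

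Over the 8 libraries, the genes most like ATF4 in log2 CPM were VPS28, SMOX, RTCB and SMIM13, with Pearson's r of 0.988, 0.985, 0.983 and 0.983. Among those most like DDIT3 were LURAP1L, GCC2 and KDM7A, with r of 0.990, 0.985 and 0.985. Within the family, PPP1R15A was the member most like both ATF4 (r = 0.982) and DDIT3 (r = 0.973), whereas ATF5 reached at most 0.496 with any other member and DDIT4 at most 0.788. These are descriptions over 8 libraries of 4 groups, ranked among all tested genes, and the libraries share their treatment and day.

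Upstream of ATF4, the list of 20 genes of the eIF2 machinery was read in edgeR's test. Of these, 1, 4 and 0 rose under compounds 4, 5 and 6, beside 5.6%, 5.35% and 0.493% of all tested genes, and none fell. The compound 4 count was near that share. Under compound 6, 4 of the 20 were higher at an unadjusted p under 0.05, beside 10.9% of all tested genes, and DESeq2 called none. The median log2 fold change of the list was 0.10, 0.27 and 0.08. Of the 4 eIF2 kinases, EIF2AK3, the endoplasmic reticulum sensor PERK, passed under compound 5. It was at 35.4 and 38.1 CPM under DMSO and at 70.3 and 60.9 CPM under compound 5, a log2 fold change of 0.83 (edgeR adjusted p = 0.011), with 0.23 and 0.28 under compounds 4 and 6 (edgeR adjusted p = 0.32 for both). The other kinases EIF2AK1 (HRI), EIF2AK2 (PKR) and EIF2AK4 (GCN2) lay between -0.28 and 0.01 in all 3 comparisons, and none of them passed. The remaining genes that rose under compound 5 were PPP1R15B (0.60), EIF2A (0.56) and EIF2S2 (0.44). EIF2A, which despite its symbol encodes a factor separate from the eIF2 subunits, also rose under compound 4, at 0.50. The lowest value under compounds 4 and 6 was that of DNAJC3, the PERK inhibitor p58IPK (-0.43 and -0.32), and under compound 5 that of OMA1, a mitochondrial protease that relays stress to HRI (-0.52). None of these 3 passed.

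The close relatives of the stress-induced regulators did not move as one. Of 7 relatives 6 were tested, DDIT4L having too few counts. TRIB1 rose under all 3 compounds, from 54.0 and 52.8 CPM under DMSO to between 86.2 and 113 CPM in the treated libraries, with log2 fold changes of 0.93, 0.98 and 0.90 (edgeR adjusted p = 0.0097, 0.01 and 0.048). SESN1, a sestrin under p53 control, was at 19.8 and 21.8 CPM under DMSO and fell under compounds 4 and 5 by 0.65 and 0.70 on the log2 scale (edgeR adjusted p = 0.041 and 0.036), with -0.48 under compound 6 (edgeR adjusted p = 0.17). SESN2 and SESN1 lay on opposite sides of DMSO under compound 5. PPP1R15B, the constitutive relative of PPP1R15A, rose under compound 5 (0.60, edgeR adjusted p = 0.046), with 0.12 and 0.05 under compounds 4 and 6. The values of SESN3 were -1.07, -0.69 and -0.46, those of TRIB2 were -0.56, -0.27 and -0.07, and those of CHAC2 were -0.62, -0.63 and -0.45, and none of them passed.

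Downstream, 31 genes of amino acid synthesis, uptake and tRNA charging that ATF4 is known to induce were all tested. Under compounds 4, 5 and 6, 10, 17 and 3 of them rose, beside 5.6%, 5.35% and 0.493% of all tested genes, and 1, 0 and 0 fell. DESeq2 called 15 under compound 6. The median log2 fold change was 0.44, 0.59 and 0.51. ASNS, asparagine synthetase, was at 59.1 and 53.3 CPM under DMSO, 111 and 184 CPM under compound 4, 195 and 142 CPM under compound 5, and 154 and 209 CPM under compound 6. Its libraries followed the same order within each treatment as the regulators, and it rose under all 3 compounds by 1.40, 1.58 and 1.69 (edgeR adjusted p = 0.012, 0.0096 and 0.033). SLC3A2, a subunit shared by amino acid transporters, was the highest of the list under compound 5 (1.99, edgeR adjusted p = 0.0093), at 996 and 775 CPM against 225 and 220 CPM under DMSO. Its value was 1.24 under compound 4 (edgeR adjusted p = 0.033) and 0.92 under compound 6 (edgeR adjusted p = 0.15). ALDH18A1, which makes proline precursors, was the lowest of the list under each compound (-0.49, -0.05 and -0.35) and fell under compound 4 (edgeR adjusted p = 0.034).

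Of 15 other ATF4 and CHOP targets 14 were tested, FGF21 having too few counts. Under compounds 4, 5 and 6, 5, 8 and 1 of them rose, beside 5.6%, 5.35% and 0.493% of all tested genes, and none fell. The median log2 fold change was 0.47, 0.66 and 0.47. GDF15, a secreted stress cytokine, was the highest under each compound, at 2.46, 2.89 and 1.99 (edgeR adjusted p = 0.006, 0.0047 and 0.048). Its level was 384 and 255 CPM under DMSO, 1446 and 2075 CPM under compound 4, 3005 and 1723 CPM under compound 5, and 871 and 1657 CPM under compound 6, with no overlap with DMSO. CEBPB, a C/EBP factor, rose under compound 5 by 1.03 (edgeR adjusted p = 0.023), with 0.77 and 0.52 under compounds 4 and 6 (edgeR adjusted p = 0.052 and 0.24). ERO1A, an oxidase of disulfide formation linked to CHOP, was the lowest, at 0.04, -0.19 and -0.06, and did not pass.

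In the list of 20 endoplasmic reticulum chaperones and other unfolded protein response genes, 1, 5 and 0 rose under compounds 4, 5 and 6 and 2, 0 and 0 fell by edgeR's test. Over all tested genes, 5.6%, 5.35% and 0.493% rose and 3.91%, 2.95% and 0.0821% fell. Under compound 6, 2 of the list were higher at an unadjusted p under 0.05, where 10.9% of all tested genes were higher. There 6 of the list were lower, a count with no share over all tested genes given here, so it is not read as a result. DESeq2 called 3, beside 518 calls over all genes. The median log2 fold change was -0.17, 0.14 and -0.22. DNAJB9, a co-chaperone of BiP, was at 22.0 and 23.2 CPM under DMSO and 78.3 and 57.4 CPM under compound 5. It rose under compound 5 by 1.58 (edgeR adjusted p = 0.0019) and under compound 4 by 0.79 (edgeR adjusted p = 0.018), with 0.41 under compound 6 (edgeR adjusted p = 0.21). HSPA5, which encodes BiP itself, stood at -0.10, 0.39 and -0.22 and did not pass (edgeR adjusted p = 0.66, 0.083 and 0.37). The sensor ERN1 was highest under compound 6, at 1.06 (edgeR adjusted p = 0.18), and CRELD2 was lowest under compounds 4 and 6, at -0.71 and -0.57 (edgeR adjusted p = 0.13 and 0.30), and DNAJB11 under compound 5, at -0.34 (edgeR adjusted p = 0.11).

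**Figure D4:**
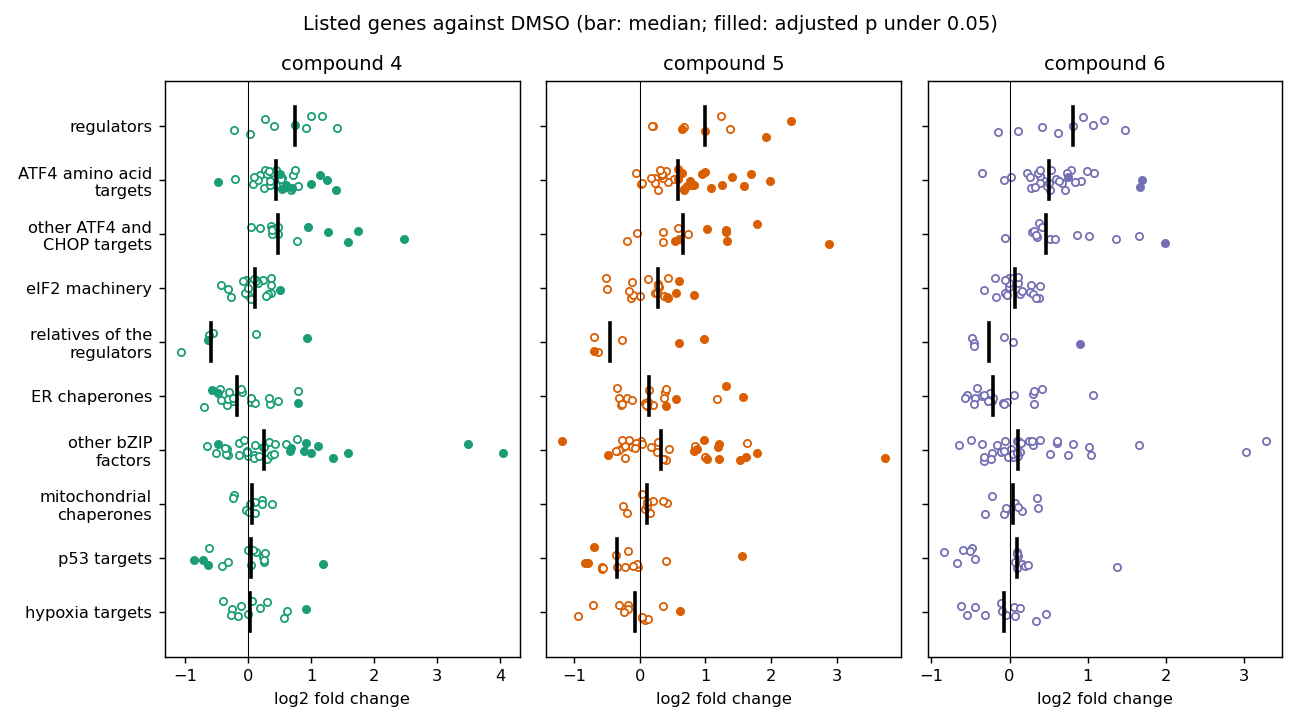
Log2 fold change against DMSO (horizontal axes) of the genes of 10 lists (rows) under compounds 4, 5 and 6. Each point is a gene, filled where its adjusted p passed, and the bar is the median. The medians of the regulators and of both target lists lie above 0 under each compound, while those of the eIF2 machinery and chaperone lists lie nearer to 0.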

How the data were processed

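RNA from 8 cultures of CYP2C19-overexpressing HepG2 cells was sequenced as directional polyadenylated libraries, 2 per group. The authors checked reads with FastQC 0.12.0 and estimated transcript abundance with Salmon 1.5.0 on human transcripts (GRCh38), summarized to genes, per the study's methods and the submitters' processing notes, which also name DESeq2 1.38.3. The deposited table holds estimated counts per gene, as whole numbers and not normalized. The labels mark replicate 1 of DMSO and of compound 4 as merged, without saying what was merged. Here the counts were used as deposited, with edgeR 4.0.16 in R 4.3.3 (TMM factors, filterByExpr with a minimum count of 10, quasi-likelihood test, all 8 libraries sharing one spread, adjusted p threshold 0.05), and CPM used TMM-scaled totals. Intervals are 95%. The residual degrees of freedom were 4. DESeq2 1.42.0, the replicate block, another scaling, other filters, fits of the 4 libraries compared and leaving out each library were alternatives. The test was checked on simulated counts. Replicate numbers mark the day in the labels. The correlation of replicate 2 minus replicate 1 between groups ran from -0.163 to 0.302 over 6 pairs of groups, so same-numbered libraries did not deviate together throughout. Exon lengths, positions and leaders came from GENCODE 29, and symbols of 60089 of 60230 gene IDs were matched. The regulators and the 12 gene lists were chosen with earlier results of these data known. Named genes were the 10 regulators, the highest and lowest gene of each list per compound, ASNS, CEBPB, HSPA5, the eIF2 kinases, the relatives, and the 4 genes most like ATF4 and DDIT3, 1 of which is not reported here. Other genes named, such as DDB2 and markers at 0, were chosen after their values were seen. The lists share up to 5 genes with each other.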

Additional observations from a re-analysis of the deposited data

Results flagged for a closer look

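DDIT4 drew attention because its libraries lay on opposite sides of DMSO under different compounds: both compound 4 libraries were lower (log2 fold change -0.23) and both compound 5 libraries higher (0.18). Neither change passed, and the direct compound 4 against compound 5 contrast gave -0.41 (edgeR unadjusted p = 0.029, adjusted p = 0.26), so the difference did not hold after adjustment.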

How the results depend on the processing

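Of 756 values for 54 regulator results under 14 alternatives, 664 kept their direction and their side of the threshold, 17 lost a call, 40 gained one and 35 changed sign, the last group only when a library was left out. The causes were not tested. With DESeq2, 2, 6 and 2 regulators were called under compounds 4, 5 and 6, beside 1379, 1290 and 518 calls over all genes. With only the 4 libraries compared the regulator counts were 3, 6 and 3, beside 1553, 847 and 1023 over all genes. With no filter on low counts they were 6, 7 and 7 under compounds 4, 5 and 6, and 4, 1 and 2 for compound 4 against 5, 4 against 6 and 6 against 5. The replicate block left 2 regulators called under compound 5, with DDIT3 and SESN2 lost, and changed no other regulator call. Over all genes, the 77 calls under compound 6 became 518 by DESeq2, 1023 with 4 libraries, 1355 with no filter, 198 with at least 10 counts in every library and 47 with DESeq2 size factors. No filter gave 2383 and 2431 in place of 1275 and 1112 under compounds 4 and 5, and 750, 259 and 990 in place of 42, 0 and 138 between compounds. DESeq2 gave 194, 60 and 370 there, the block 128, 1 and 269, 4 libraries 10, 0 and 49, and at least 10 counts 65, 5 and 207.

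Leaving out each library in turn, the count of called regulators ran from 0 to 2 under compound 4, from 0 to 6 under compound 5 and stayed at 0 under compound 6. It was 0 under compound 4 without DMSO replicate 1, DMSO replicate 2 or compound 4 replicate 2, and 0 under compound 5 without DMSO replicate 1, DMSO replicate 2 or compound 5 replicate 1. The counts over all genes ran from 43 to 1681, 46 to 1814 and 2 to 432. Log2 fold changes that changed sign against DMSO ran from -0.081 to 0.14 (ATF5) and -0.024 to 0.48 (SESN2) under compound 4, and from -0.54 to 0.16 (ATF5) and -0.12 to 0.29 (DDIT4) under compound 6. For compound 4 against 5 they ran from -1.15 to 0.21 (ATF3), -0.92 to 0.14 (TRIB3), -0.21 to 0.27 (CEBPG) and -1.32 to 0.13 (DDIT3). For compound 4 against 6 the ranges were -0.19 to 0.19 (ATF4), -0.84 to 0.54 (ATF3), -0.51 to 0.53 (DDIT3), -0.63 to 0.54 (TRIB3), -0.65 to 0.68 (PPP1R15A), -0.15 to 0.32 (CEBPG) and -0.14 to 0.56 (ATF5). For compound 6 against 5 they were -0.92 to 0.27 (ATF3), -1.29 to 0.16 (DDIT3), -0.30 to 0.12 (DDIT4), -0.86 to 0.16 (TRIB3), -0.59 to 0.13 (SESN2) and -0.25 to 0.15 (CEBPG). A lone remaining library is assumed to vary like the other groups. Counts of 47 or more lay behind each value of the 9 regulators. Where replicates lay close, counting error was not small beside the spread between libraries. Examples are ATF5 under compound 4 (26.3 and 26.6 CPM) and DDIT4 under DMSO (154 and 152 CPM).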

Other observations

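Beyond the 10 regulators, 36 of the 41 other bZIP factors were tested. They gave 10, 11 and 0 higher calls under compounds 4, 5 and 6 and 1, 2 and 0 lower ones in edgeR's test. Over all tested genes, 5.6%, 5.35% and 0.493% were called higher and 3.91%, 2.95% and 0.0821% lower. The median log2 fold change of the bZIP list was 0.24, 0.32 and 0.11. Under compound 6, 10 were higher at an unadjusted p under 0.05, beside 10.9% of all tested genes. There 2 were lower, with no share over all tested genes given here, and DESeq2 called 4, beside 518 calls over all genes. BATF, an AP-1 partner known from lymphocytes, was at 0.307 and 0.251 CPM under DMSO, with 3 counts in each library, and at 3.00 and 6.39 CPM under compound 4, 4.94 and 2.79 CPM under compound 5 and 1.28 and 4.26 CPM under compound 6. It passed under compounds 4 and 5 (edgeR adjusted p = 0.015 and 0.022) and not under compound 6 (0.088), and no fold is given at so low a count. CREB3L4 was the lowest of the list under each compound and fell under compound 5 by 1.18 (edgeR adjusted p = 0.015).

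None of the 10 mitochondrial chaperones and proteases passed under any compound in edgeR's test. At an unadjusted p under 0.05, 1, 2 and 2 were higher, beside 15.1%, 15.6% and 10.9% of all tested genes. At that p 0, 0 and 1 were lower, and DESeq2 called 0, 1 and 0. No share over all tested genes is given for counts lower at that p, here or for the lists below, so they are not read as results. The highest were LONP1 (0.38) under compound 4 and HSPA9 (0.42 and 0.36) under compounds 5 and 6, and the lowest were SPG7 (-0.24) and HSPE1 (-0.25 and -0.31). Of 15 p53 targets, PLK3 rose under compounds 4 and 5 (1.18 and 1.56) while BTG2 (-0.86 and -0.82), SESN1 and DDB2 fell. The median log2 fold change of the list was 0.04, -0.34 and 0.09 under compounds 4, 5 and 6, beside 0.01, 0.00 and 0.02 over all tested genes. Under compound 5, 13 of the 15 were below 0 and 2 above it. Over all tested genes, 5.6% and 5.35% rose and 3.91% and 2.95% fell. Under compound 6 no p53 target passed in edgeR's test, with PLK3 at 1.37 and BTG2 at -0.84. There 1 was higher and 4 lower at an unadjusted p under 0.05, and DESeq2 called 2. Of 12 hypoxia targets, SLC2A1 was the only one to pass in edgeR's test, under compounds 4 and 5 (0.91 and 0.62). That count is near the 5.6% and 5.35% of all tested genes called higher. CA9 was the lowest at -0.40, -0.94 and -0.62 without passing. Of the 9 hepatocyte markers, 4 fell under compound 4 (APOA1, AFP, TF and APOB), against 3.91% of all tested genes. FGB rose under compound 5 (0.53), where 5.35% of all tested genes rose. None passed under compound 6 in edgeR's test, where 5 were lower at an unadjusted p under 0.05 and DESeq2 called 4, beside 518 calls over all genes. The former count also has no share over all tested genes beside it. APOA1 was the lowest under each compound (-0.90, -0.52 and -0.91), and the highest were TTR (0.25), FGB and HNF4A (0.074) under compounds 4, 5 and 6. Among the 3 tested markers of other cell types CD68 was at 0.80, 0.03 and 0.43 and ACTA2 at -0.43, -1.0 and -0.39. Of these, CD68 rose under compound 4 and ACTA2 fell under compound 5. Over all tested genes, 5.6% rose under compound 4 and 2.95% fell under compound 5.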
